A study of Homo sapiens with 4 samples.

Results

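The genes described here were 29 cancer-testis antigen genes of 8 families (MAGEA, MAGEC, CSAG, PAGE, XAGE, GAGE, SSX and CTAG) in 4 prostate cancer cell lines. They were chosen by gene name, with a pattern of family prefixes applied to a table of 22637 genes, and the families themselves were proposed with expression ratios of these same libraries in view, so the values below are descriptions and no test was made. The pattern matched 37 genes, of which 7 CTAGE genes and SSX2IP matched by spelling only and are given apart. The pattern also named MAGEB and SPANX, but no gene of either family had an entry in the table.

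LNCaP, a castration-sensitive line from a prostate cancer metastasis, was set against LN-OlapR, the line derived from it by long exposure to rising olaparib (the LN pair). C4-2B, a castration-resistant line of LNCaP origin, was set against 2B-OlapR, derived from it in the same way (the 2B pair). Olaparib inhibits the DNA repair enzyme PARP. All 4 lines are labelled prostatic adenocarcinoma and untreated, and RNA was taken 48 hours after plating without a selection agent, by the series description. The study's methods give a longer time in culture before extraction and say that the resistant lines were kept in medium with olaparib. Those methods do not make clear whether the medium used for plating before RNA extraction held olaparib. Each line gave 1 library, of 19950537 to 26394267 estimated counts, so there was no replicate check on any difference, and every interval below covers counting error only. Whether an individual resistant line is a single clone was not given in the sources used here.

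All 10 luminal prostate markers examined were present in every library, with summed levels of 3987 to 7403 CPM, counts per 1000000 of the normalized library size. The library labelled LNCaP stood apart in KLK3, which encodes the prostate-specific antigen and had 1428 counts there against 62636 (LN-OlapR), 49347 (C4-2B) and 38749 (2B-OlapR). Of 8 germ cell markers only ACRV1 had an entry in the table, with 1 to 9 counts. Of the 3 leukocyte markers only CD68 had an entry, with 11 counts in LNCaP and 120 in LN-OlapR, and 86 in C4-2B and 45 in 2B-OlapR. KRT14, the only basal marker with an entry, had 3 to 13 counts, and 3 stromal markers together had 183 to 456. The part of these markers in the differences below was not tested.

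Cancer-testis antigens are genes whose expression in the healthy adult is largely limited to germ cells of the testis and that are switched on again in many tumours, where their peptides can be recognised by T cells. Most of the classical families lie on the X chromosome as recent tandem or inverted copies, and in somatic cells they are silenced to a large extent by DNA methylation of CG pairs in their promoters. MAGE proteins bind and direct E3 ubiquitin ligases, SSX proteins act in the nucleus as transcriptional repressors, and CTAG1B encodes NY-ESO-1, a frequent target of tumour immunotherapy.

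Because methylation falls on CG pairs, the stretch before the start of the member with the most counts is printed for 4 families, 5′ to 3′ on the strand of the gene, with CG pairs in capitals. The sequences are from RefSeq, build GRCh38.p14, all on the X chromosome, and they end at least 51 bases before the RefSeq start. They lie at chrX:152698544-152698743 on the plus strand for MAGEA3, at chrX:49696035-49696234 on the minus strand for PAGE1, at chrX:49589246-49589445 on the plus strand for GAGE2A and at chrX:52495558-52495675 on the plus strand for XAGE1A.
MAGEA3: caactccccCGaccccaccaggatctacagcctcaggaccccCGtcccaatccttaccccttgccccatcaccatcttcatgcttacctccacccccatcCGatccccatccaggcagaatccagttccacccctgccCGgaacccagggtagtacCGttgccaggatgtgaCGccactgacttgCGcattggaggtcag
PAGE1: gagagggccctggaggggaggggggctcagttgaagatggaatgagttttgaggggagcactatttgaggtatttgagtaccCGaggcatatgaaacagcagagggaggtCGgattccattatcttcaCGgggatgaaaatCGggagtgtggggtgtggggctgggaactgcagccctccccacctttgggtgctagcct
GAGE2A: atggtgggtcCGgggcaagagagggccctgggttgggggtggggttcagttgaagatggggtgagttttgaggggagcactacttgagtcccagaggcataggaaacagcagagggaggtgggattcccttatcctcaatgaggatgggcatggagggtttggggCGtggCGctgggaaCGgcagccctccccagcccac
XAGE1A: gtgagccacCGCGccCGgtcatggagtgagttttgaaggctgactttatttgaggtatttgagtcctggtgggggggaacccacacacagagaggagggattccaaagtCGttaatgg
The MAGEA3 stretch held 7 CG pairs, and the same 200 bases were found before MAGEA6 (chrX:152769740-152769939, minus strand), with 0 differing bases. GAGE2A and GAGE13 also shared all 200 bases. The GAGE2A and PAGE1 stretches, each with 4 CG pairs, were 69.1% identical over an alignment of 220 columns, against 41.3% for GAGE2A and MAGEA3. Over the 21 members with a window of 200 bases, the number of CG pairs ran from 2 to 13 with a median of 5, and the median of all 35116 windows in the table was 8. The letters CCGGAA, on either strand the core of ETS factor sites, occurred in 2 of the 21, MAGEA3 and MAGEA6, and in 10% of all windows. Methylation itself was not analysed here.

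All 28 members with a position in GENCODE 29 (GRCh38) lay on the X chromosome, in 6 groups when genes within 1 megabase of each other were joined. SSX1, SSX4B, the 4 GAGE genes and PAGE1 lay on the short arm between 48255317 and 49695993, and XAGE1A, XAGE1B, SSX2 and SSX2B between 52495676 and 52790305. On the long arm were MAGEC1 and MAGEC2 (141903894 to 142205290), MAGEA8 (149881141 to 149885835), 11 MAGEA and CSAG genes from MAGEA4 to MAGEA1 (151912509 to 153183880) and the CTAG genes (154585143 to 154653579). CSAG4 had no entry in that annotation.

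In LNCaP 8 families were detected together, whereas in LN-OlapR nearly all of the signal lay in MAGEA and CSAG genes. The plot of every gene by library shows the levels. MAGEA and CSAG gave most of the family counts in every library, with 73.4% and 10.8% in LNCaP and 87.7% and 11.9% in LN-OlapR. They gave 67.6% and 7.27% in C4-2B, and 66.9% and 7.93% in 2B-OlapR. At 3 counts or fewer were 2 of the 29 genes in LNCaP and 16 in LN-OlapR, and 2 in C4-2B and 6 in 2B-OlapR, a limit of 3 counts being worth 0.112, 0.129, 0.147 and 0.145 CPM. At least 100 counts were seen for 15, 9, 17 and 15 genes. In these bulk samples fewer expressing cells and less RNA per cell cannot be told apart.

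**Figure D1:**
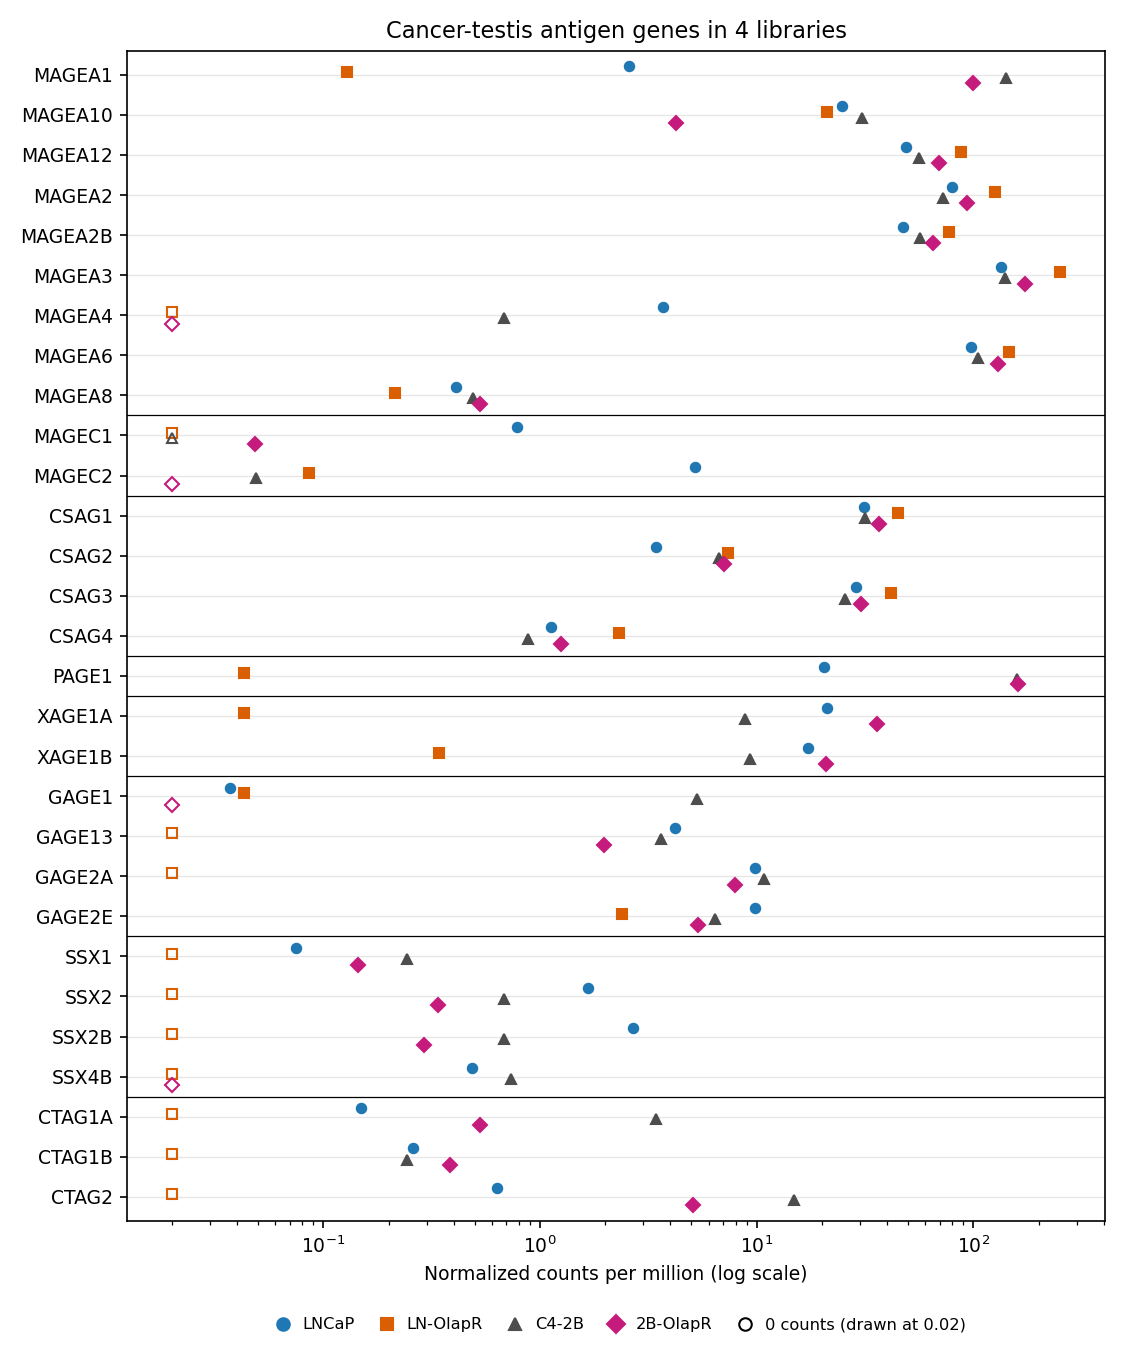
Normalized CPM (log scale) of the 29 genes, grouped by family between the black lines, with 1 marker per library and open markers for 0 counts drawn at 0.02. LN-OlapR (orange squares) sits to the right in MAGEA3 and its neighbours and at the left edge in GAGE13, GAGE2A and the SSX and CTAG genes, and C4-2B and 2B-OlapR sit to the right of LNCaP in MAGEA1, PAGE1 and CTAG2.

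The total of the 29 genes was 598 CPM in LNCaP and 810 in LN-OlapR, and 893 in C4-2B and 951 in 2B-OlapR. Its makeup differed more than its size. MAGEA genes gave 73.4%, 87.7%, 67.6% and 66.9% of the family counts, and PAGE1 gave 3.42%, 0.00529%, 17.8% and 16.8% (exact 95% intervals 3.14 to 3.71, 0.000134 to 0.0295, 17.2 to 18.3 and 16.3 to 17.3). These are shares of counts, which longer genes collect in larger number.

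**Figure D2:**
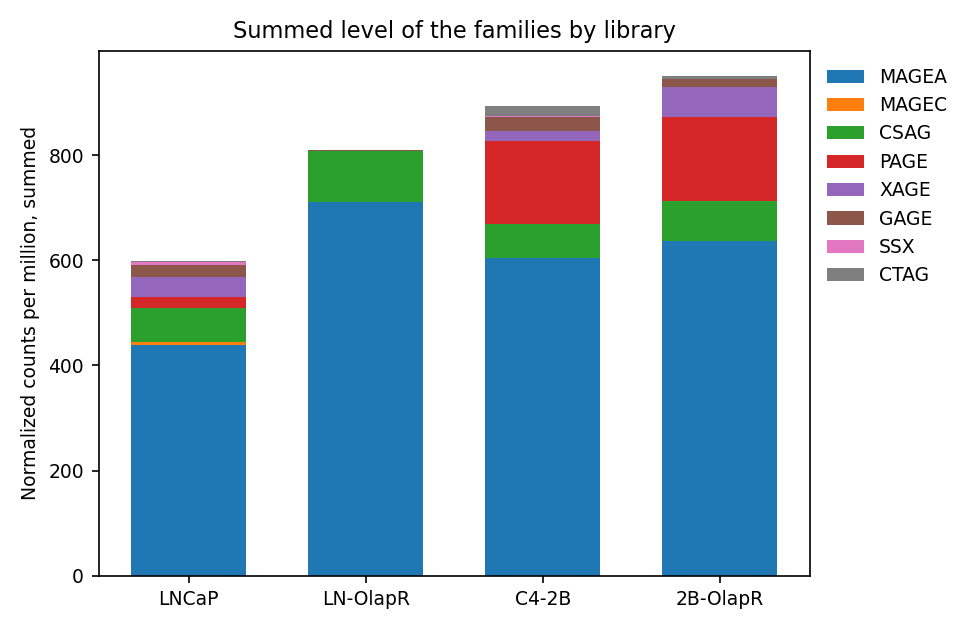
Summed normalized CPM of the 8 families in each library, stacked by family and not corrected for gene length. LN-OlapR, at 810 in all, is made almost wholly of MAGEA (blue) and CSAG (green), while PAGE (red) reaches 159 in C4-2B and 160 in 2B-OlapR against 20.5 in LNCaP.

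When levels were divided by the length of the longest transcript, MAGEA3 stood first of 28 genes in LNCaP (76.2 CPM per kb) and in LN-OlapR (143 CPM per kb). PAGE1 stood first in C4-2B (239 CPM per kb) and in 2B-OlapR (240 CPM per kb). The next in order was MAGEA6 in LNCaP and LN-OlapR, MAGEA1 in C4-2B (82.8 CPM per kb) and MAGEA3 in 2B-OlapR (98.4 CPM per kb).

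MAGEA genes encode MAGE proteins of type I, and CSAG genes lie between them. Summed MAGEA counts were 11812 in LNCaP and 16586 in LN-OlapR, and 12354 in C4-2B and 13189 in 2B-OlapR. The sums gave a log2 ratio of 0.69 (95% interval 0.66 to 0.73) in LN-OlapR over LNCaP, 0.08 (0.04 to 0.11) in 2B-OlapR over C4-2B and 0.46 (0.42 to 0.49) in C4-2B over LNCaP. In the LN pair the family sum joined genes that differed in opposite directions, and position, a division chosen after seeing the data, divided them. In C4-2B over LNCaP position did not, as MAGEA1 (log2 5.77) and MAGEA4 (log2 -2.38) both lie outside the stretch from MAGEA3 to MAGEA6.

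From MAGEA3 to MAGEA6, whose start coordinates lie 67.4 kb apart, with 5 MAGEA and 3 CSAG genes, every gene was higher in LN-OlapR than in LNCaP. MAGEA3 (chrX:152698752-152702347) had 3610 counts in LNCaP and 5885 in LN-OlapR, and 2859 in C4-2B and 3593 in 2B-OlapR. MAGEA6 (chrX:152766136-152769747), an inverted near-copy of it, had 2626, 3407, 2156 and 2695. The highest of the 4 libraries was LN-OlapR for both genes, and their log2 ratios in LN-OlapR over LNCaP were 0.91 and 0.58, in 2B-OlapR over C4-2B 0.31 and 0.30.

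MAGEA12 had 1317, 2055, 1145 and 1445 counts in LNCaP, LN-OlapR, C4-2B and 2B-OlapR. MAGEA2 and MAGEA2B, copies of each other, had 3417, 4739, 2650 and 3284 together. The counts were divided as 2142, 2936, 1484 and 1933 for MAGEA2 and 1275, 1803, 1166 and 1351 for MAGEA2B. All these genes were thus highest in LN-OlapR and differed by less than 2-fold.

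CSAG1 (845, 1046, 649 and 761 counts) and the copies CSAG2 and CSAG3 (861, 1146, 660 and 776 together) also had their highest CPM in LN-OlapR and the next highest in 2B-OlapR. CSAG1 starts 44 bases from MAGEA12 on the other strand, and CSAG2 and MAGEA2B, like CSAG3 and MAGEA2, start 37 bases apart. The libraries were stranded, but how the counting used strand was not given in the sources used here. CSAG3 had 769, 974, 523 and 630 counts. CSAG2 alone, with 92, 172, 137 and 146 counts, passed 2-fold in LN-OlapR over LNCaP (log2 1.10, 0.73 to 1.49), while its sum with CSAG3 did not (log2 0.62, 0.49 to 0.75). CSAG4, a CSAG gene without a position here, had 30, 54, 18 and 26 counts and a log2 ratio of 1.04 (0.38 to 1.75) in LN-OlapR over LNCaP.

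Over the 8 genes from MAGEA3 to MAGEA6, the summed counts were 12676, 18277, 10119 and 12555. The log2 ratios were 0.73 (0.70 to 0.77) in LN-OlapR over LNCaP, 0.29 (0.26 to 0.33) in 2B-OlapR over C4-2B and 0.07 (0.03 to 0.11) in C4-2B over LNCaP. The block held 78.8% of the family counts in LNCaP and 96.7% in LN-OlapR, and 55.4% in C4-2B and 63.7% in 2B-OlapR. In CPM it was at 472 in LNCaP and 495 in C4-2B, below the 784 of LN-OlapR and the 606 of 2B-OlapR.

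The MAGEA genes outside that block differed much more among the lines. MAGEA1 (chrX:153179285-153183880), 480.5 kb past the start of MAGEA3, had 69 counts in LNCaP and 3 in LN-OlapR, and 2896 in C4-2B and 2072 in 2B-OlapR. It was 54.8-fold higher in C4-2B than in LNCaP (log2 5.77, 5.44 to 6.15), and 17.2-fold lower in LN-OlapR than in LNCaP (log2 -4.11, -6.63 to -2.71). In 2B-OlapR it was 1.42-fold lower than in C4-2B. This gene gave MAGE-A1, the antigen by which the MAGE family was first found.

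MAGEA10 (chrX:152133310-152138578), on the other side of MAGEA3, had 663, 493 and 624 counts in LNCaP, LN-OlapR and C4-2B but 88 in 2B-OlapR. It was 7.15-fold lower in 2B-OlapR than in its parent C4-2B (log2 -2.84, -3.18 to -2.52). MAGEA4, a target of engineered T cells, had 99 counts in LNCaP and 0 in LN-OlapR, and 14 in C4-2B and 0 in 2B-OlapR. Both resistant lines were at 0, at least 28.6-fold lower than LNCaP and at least 4.73-fold lower than C4-2B when 3 counts are set as the floor. A further MAGEA gene on its own, MAGEA8, had 5 to 11 counts in each library.

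**Figure D3:**
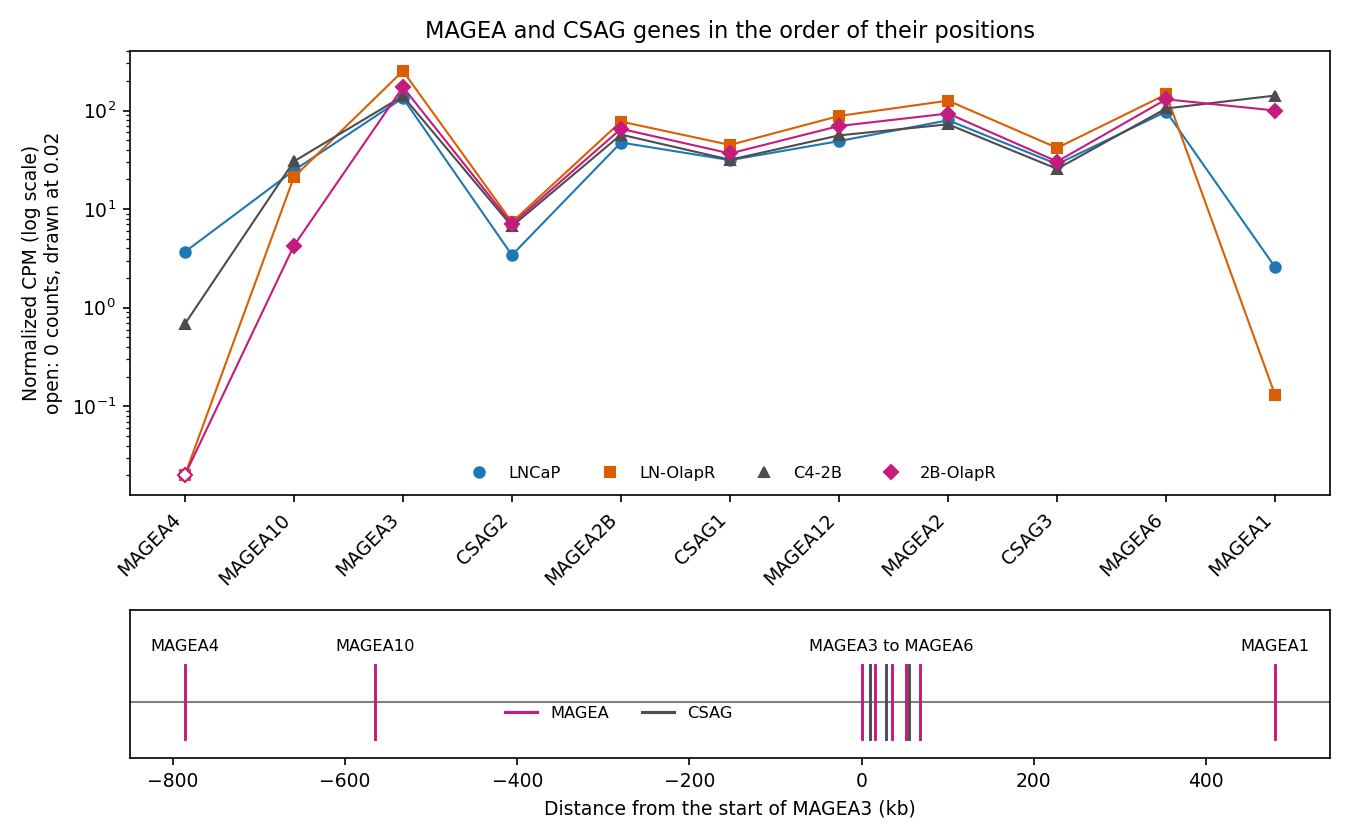
Normalized CPM (log scale) of the 11 MAGEA and CSAG genes between MAGEA4 and MAGEA1 in order of position (top, 1 line per library, lines only guide the eye), and their distance in kb from the start of MAGEA3 (bottom). The 4 lines run close together over the 8 genes from MAGEA3 to MAGEA6 and part at MAGEA4, MAGEA10 and MAGEA1.

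The genes of other names in the same interval were looked up after these values had been seen. GABRA3, a GABA receptor subunit gene between MAGEA10 and MAGEA3, had 88, 351, 69 and 172 counts (log2 2.19 in LN-OlapR over LNCaP and 1.29 in 2B-OlapR over C4-2B). PNMA3, a gene of the PNMA family that lies before MAGEA1, had 226, 11, 314 and 130 counts (log2 -4.10 and -1.29). PNMA6A and PNMA6B, between PNMA3 and MAGEA1, had ratios of 1.27 and 1.28 in the LN pair and -1.10 and -0.39 in the 2B pair. CETN2 and NSDHL, the nearest listed genes past MAGEA6, had ratios of 0.76 and 0.40 in the LN lines. These genes of other families therefore did not share a single direction.

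MAGEC1 and MAGEC2, type I MAGE genes nearer the centromere, were expressed above a few counts in LNCaP only. MAGEC2 (chrX:142202345-142205290) had 139 counts in LNCaP and 2 in LN-OlapR, and 1 in C4-2B and 0 in 2B-OlapR. MAGEC1 had 21, 0, 0 and 1. Summed MAGEC counts gave a log2 ratio of -5.80 (-9.18 to -4.24) in LN-OlapR over LNCaP and -6.35 (-12.24 to -4.43) in C4-2B over LNCaP. With 1 count in each of C4-2B and 2B-OlapR, no ratio was given for that pair.

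PAGE1, a small gene of the same superfamily as GAGE and XAGE, differed widely among the lines. PAGE1 (chrX:49687450-49695993) had 550 counts in LNCaP and 1 in LN-OlapR, and 3248 in C4-2B and 3309 in 2B-OlapR. It was 318-fold lower in LN-OlapR than in LNCaP (log2 -8.31, -14.20 to -6.41, and -7.32 with 2 counts added in place of 0.5) and 7.75-fold higher in C4-2B than in LNCaP (log2 2.95, 2.82 to 3.09). Between C4-2B and 2B-OlapR the log2 ratio was 0.01 (-0.06 to 0.08). No 100-base stretch of its transcript was found in another gene, so its counts did not rest on a division among copies.

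The XAGE1 genes, inverted copies that encode the same antigen, showed opposite differences in the LN and 2B lines. XAGE1A and XAGE1B (chrX:52495676-52500812 and chrX:52512077-52520803) together had 1030 counts in LNCaP and 9 in LN-OlapR, and 371 in C4-2B and 1180 in 2B-OlapR. The sum was 94.1-fold lower in LN-OlapR than in LNCaP (log2 -6.56, -7.77 to -5.70). It was 3.14-fold higher in 2B-OlapR than in its parent C4-2B (log2 1.65, 1.48 to 1.82), and 2.11-fold lower in C4-2B than in LNCaP. The counts were divided as 566, 1, 180 and 748 for XAGE1A and as 464, 8, 191 and 432 for XAGE1B. Both copies differed the same way in each pair.

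GAGE genes, a tandem array of near-identical copies, had 640 counts in LNCaP and 57 in LN-OlapR, and 537 in C4-2B and 318 in 2B-OlapR. The sums gave a log2 ratio of -3.27 (-3.70 to -2.89) in LN-OlapR over LNCaP, -0.77 (-0.98 to -0.57) in 2B-OlapR over C4-2B and 0.14 (-0.03 to 0.31) in C4-2B over LNCaP. The family as a whole was thus lowest in LN-OlapR, and C4-2B and LNCaP differed by less than counting error.

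How those GAGE counts fell on single copies differed from library to library. GAGE2A had 263, 0, 222 and 165 counts in LNCaP, LN-OlapR, C4-2B and 2B-OlapR, and GAGE13 had 113, 0, 74 and 41. GAGE2E had 263, 56, 132 and 111, and GAGE1 had 1, 1, 109 and 0. In LN-OlapR 98% of the family counts were given to GAGE2E, whose every 100-base stretch also occurs in another gene, and GAGE2A was at least 76.1-fold lower there than in LNCaP. The model of GAGE1 overlaps that of GAGE2A, and GAGE1 took 20.2% of the GAGE counts in C4-2B and 0 or 1 count in the other libraries.

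SSX genes, known from the SS18::SSX fusions of synovial sarcoma, had 131 counts in LNCaP and 1 in LN-OlapR, and 48 in C4-2B and 16 in 2B-OlapR. The sums gave a log2 ratio of -6.25 (-12.14 to -4.33) in LN-OlapR over LNCaP, -1.57 (-2.52 to -0.76) in 2B-OlapR over C4-2B and -1.05 (-1.56 to -0.57) in C4-2B over LNCaP. Most of the counts were those of the copies SSX2 (45, 0, 14 and 7) and SSX2B (72, 0, 14 and 6). Together they had 117, 1, 28 and 13 counts, the 1 count in LN-OlapR being divided equally between them. The other 2 SSX genes had 0 to 15 counts, and SSX4 had no entry in the table.

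Of the 8 families CTAG had the highest ratio of C4-2B over LNCaP. They had 27 counts in LNCaP and 0 in LN-OlapR, and 378 in C4-2B and 124 in 2B-OlapR. The sum was 18.1-fold higher in C4-2B than in LNCaP (log2 4.18, 3.64 to 4.82) and 3.08-fold lower in 2B-OlapR than in its parent C4-2B (log2 -1.62, -1.93 to -1.33). LN-OlapR was at least 7.81-fold lower than LNCaP. CTAG2, which encodes LAGE-1, had 17, 0, 303 and 105 of these counts. The NY-ESO-1 copies CTAG1A and CTAG1B had 10, 0, 75 and 19 together, of which CTAG1A took 4, 0, 70 and 11.

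**Figure D4:**
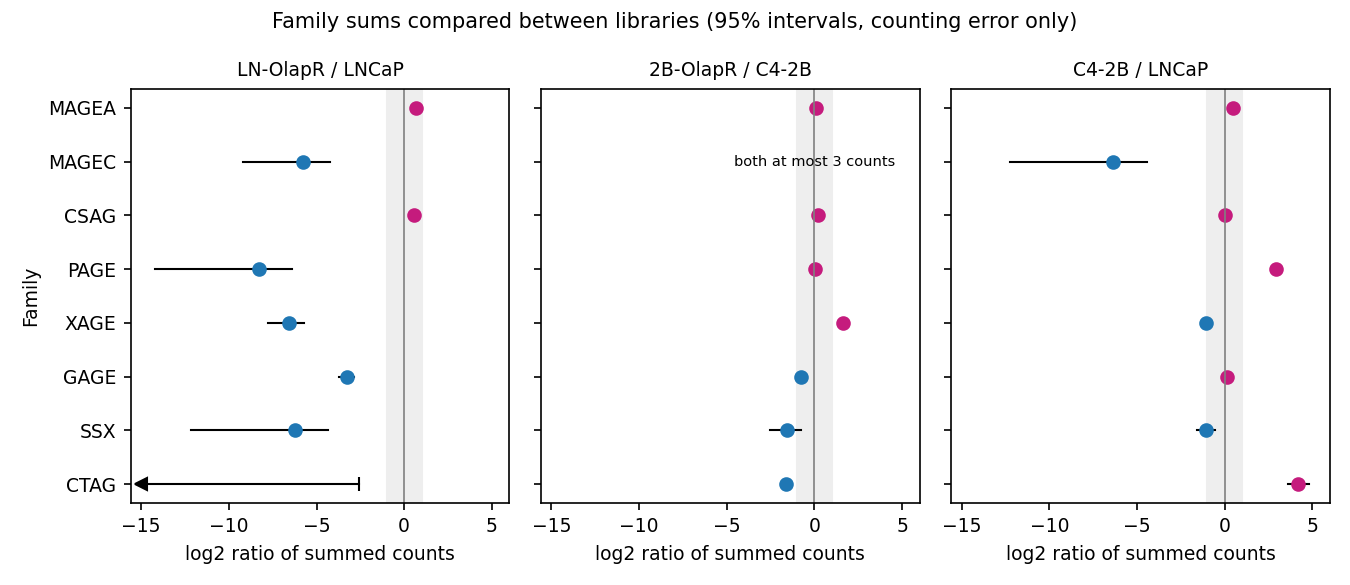
Log2 ratio of summed counts for each family in the 3 comparisons, with 95% intervals for counting error as bars, a grey band for ratios under 2-fold, and an arrow where the library in the numerator had 0 counts. In LN-OlapR over LNCaP 6 families lie left of the band, in 2B-OlapR over C4-2B XAGE lies right and SSX and CTAG left of it, and in C4-2B over LNCaP PAGE and CTAG lie right of it, MAGEC far left and XAGE and SSX just left.

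The comparisons of C4-2B with LNCaP and of LN-OlapR with LNCaP share the LNCaP library, and the first also shares C4-2B with the 2B pair, so their values are not independent of each other. Without the block from MAGEA3 to MAGEA6 and without CSAG genes, the 20 remaining genes summed to 3380 counts in LNCaP and 571 in LN-OlapR, and 8128 in C4-2B and 7119 in 2B-OlapR. That sum was 5.13-fold lower in LN-OlapR than in LNCaP (log2 -2.36, -2.49 to -2.23). The 9 genes left out, a choice made after seeing the data, were those with an LN interval above 0. A lower remainder in LN-OlapR was thus fixed in advance. The sum was 3.16-fold higher in C4-2B than in LNCaP. Most of its counts in C4-2B were those of PAGE1 (550 in LNCaP and 3248 in C4-2B) and MAGEA1 (69 and 2896). The CTAG sum was also higher in C4-2B than in LNCaP, and the MAGEC, XAGE and SSX sums were lower. In 2B-OlapR over C4-2B the log2 ratio of the 20 genes was -0.21.

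Genes were called when they differed by at least 2-fold and averaged at least 1 CPM over the pair of libraries. In LN-OlapR over LNCaP, 20 of the 29 members reached that level, of which 2 were higher (CSAG2 and CSAG4) and 10 lower. Of all 15373 genes at that level 4.64% were higher and 4.83% lower. The 10 lower genes were MAGEA1, MAGEA4, MAGEC2, PAGE1, XAGE1A, XAGE1B, GAGE13, GAGE2A, GAGE2E and SSX2B, and 9 of them were under 1 CPM in LN-OlapR, so they met the level through LNCaP alone. Among 517 X-linked genes outside the families 4.45% were higher and 5.42% lower.

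In 2B-OlapR over C4-2B, 20 members reached the level, of which 2 were higher (XAGE1A and XAGE1B) and 4 lower (MAGEA10, GAGE1, CTAG1A and CTAG2, 2 of them under 1 CPM in 2B-OlapR). The shares of all 15527 genes were 4.42% higher and 5.65% lower. In C4-2B over LNCaP, 23 members reached it, with 5 higher (MAGEA1, PAGE1, GAGE1, CTAG1A and CTAG2) and 5 lower (MAGEA4, MAGEC2, XAGE1A, SSX2 and SSX2B). Of all 15580 genes 8.00% were higher and 7.18% lower. Of those 5 and 5 members, 3 were under 1 CPM in LNCaP and 4 in C4-2B. Copies in these counts share reads and are not separate observations. The members at the level had a median log2 ratio of -1.12 in the LN pair, 0.13 in the 2B pair and 0.06 in C4-2B over LNCaP, and all genes at it had medians of -0.004, -0.000 and -0.016. The LN median includes the 9 genes that met the level through LNCaP alone, so the filter favours a low value there. Copies entered these medians singly.

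The counts of near-identical copies were estimates that split shared reads. Among the values of the 29 genes 57.8% were not whole numbers, against 38% over the whole table. All 8 values of XAGE1A and XAGE1B were fractional, and their sum was whole to within 0.01 in 4 of 4 libraries. CSAG2 with CSAG3 gave the same picture. The sum of the 3 CTAG genes was whole in 4 libraries, 1 of which held only zeros, and that of the 4 GAGE genes in 3. The sums of MAGEA2 with MAGEA2B and of MAGEA3 with MAGEA6 were whole in 0 of 4 libraries. The 5 MAGEA genes from MAGEA3 to MAGEA6 summed to 10969.940, 16084.990, 8810.030 and 11018.060, close to whole numbers. These 5 genes share sequence with other genes to differing degrees, so their values are not separate observations. Sums over copies were therefore given beside each copy, but MAGEA3 and MAGEA6 were summed only with the rest of their stretch.

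Transcript sequence showed where such splitting could occur. In 100-base stretches, 100% of XAGE1A was also in XAGE1B, 100% of SSX2 in another gene, 89.4% of MAGEA2, 88% of CSAG2 and 85.3% of CTAG1A. Of MAGEA3 34.9% and of MAGEA6 33% was shared, and of CTAG2 24.5%. MAGEA1, MAGEA4, MAGEA8, MAGEC1, MAGEC2, PAGE1 and SSX1 had 0%, so the differences in MAGEA1, MAGEA4, MAGEC2 and PAGE1 above rested on sequence of their own at this length.

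**Figure D5:**
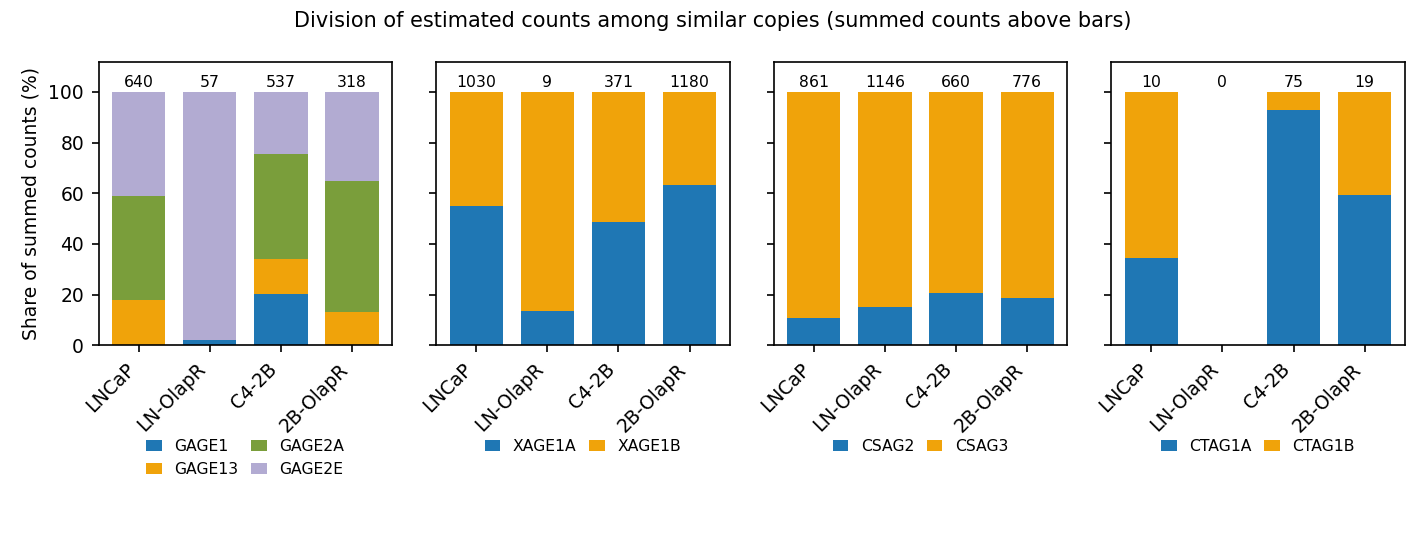
Percent of the summed estimated counts given to each copy of 4 groups of similar genes, by library, with the summed counts above the bars. The GAGE bar of LN-OlapR is almost wholly GAGE2E, XAGE1A takes 13.4% of 9 counts in LN-OlapR against 63.4% of 1180 in 2B-OlapR, and CTAG1A takes 93% of 75 counts in C4-2B.

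A list of further cancer-testis genes and other MAGE genes outside these families gave a mixed picture. It included highly expressed genes such as MAGED1 (6553 counts in LNCaP) and MAGEF1, so its medians do not describe testis-restricted genes alone. Of 57 listed, 40 had an entry, and 31, 32 and 33 reached the level in the LN pair, the 2B pair and C4-2B over LNCaP. In the LN pair 4 were higher and 5 lower (median log2 -0.15), in the 2B pair 3 and 3 (-0.10), and in C4-2B over LNCaP 5 and 8 (0.10), beside the shares of all genes given above (4.64% and 4.83%, 4.42% and 5.65%, 8.00% and 7.18%). PASD1, a cancer-testis gene of the X chromosome, had 20 counts in LNCaP and 433 in LN-OlapR, and 26 in C4-2B and 18 in 2B-OlapR. DDX53, an X-linked RNA helicase gene, had 125, 0, 38 and 25 counts and was at least 36.2-fold lower in LN-OlapR than in LNCaP. Cancer-testis genes outside the families thus included some that were higher and some that were lower in LN-OlapR.

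In the 2B pair the highest and lowest of that list were VCX3A (89, 75, 11 and 51 counts) and SYCP3, a synaptonemal complex gene (80, 207, 79 and 17). In C4-2B over LNCaP they were TEX15, a gene of male meiosis (9, 16, 83 and 53), and VCX (630, 348, 64 and 79). VCX genes are X-linked copies of each other, so single values are uncertain.

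Genes of DNA methylation and chromatin silencing were examined because promoter methylation is known to silence these families. All 22 had an entry and reached the level, and 0 were 2-fold higher in any comparison. Of all genes 4.64%, 4.42% and 8.00% were higher in the LN pair, the 2B pair and C4-2B over LNCaP, and 4.83%, 5.65% and 7.18% lower. DNMT3A, a de novo DNA methyltransferase gene, had 1695 counts in LNCaP and 532 in LN-OlapR, and 544 in C4-2B and 211 in 2B-OlapR, giving log2 ratios of -1.47 in the LN pair, -1.38 in the 2B pair and -1.25 in C4-2B over LNCaP. TET1, which oxidises methylated cytosine, had 143, 61, 114 and 17 counts, with log2 ratios of -1.02, -2.73 and 0.07. No other gene of the list passed 2-fold, but DNMT3B, the other de novo methyltransferase gene, was close to it with 477, 210, 372 and 194 counts (log2 -0.98, -0.96 and 0.04). DNMT1, the maintenance methyltransferase gene, had 7062, 6633, 6717 and 7156 counts.

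The highest of the list were UHRF1 in the LN pair (log2 0.33), ZBTB4 in the 2B pair (0.48) and EHMT2 in C4-2B over LNCaP (0.55). The median log2 ratio of the list was -0.17, -0.08 and -0.02. DNMT3A was thus lower in each resistant line than in its parent. Any part of these enzymes in the levels of the families was not tested.

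Of 15 genes for proteins known to bind MAGE or SSX proteins 14 had an entry. In either resistant pair 0 of them passed 2-fold (medians -0.01 and -0.03). Among every gene at the 1 CPM level, LN-OlapR over LNCaP gave 4.64% up and 4.83% down. For 2B-OlapR over C4-2B these shares were 4.42% and 5.65%, so a count of 0 among 14 genes says little. TRIM28, the ligase that several MAGEA and MAGEC proteins bind, had 16383, 12434, 14810 and 15544 counts in LNCaP, LN-OlapR, C4-2B and 2B-OlapR. In the LN pair the list ran from EP300 (-0.49) to PRKAA1 (0.63), and in the 2B pair TRIM27 was the lowest (-0.45). In C4-2B over LNCaP 1 was lower, NCOA2, a steroid receptor coactivator gene (log2 -1.11), the highest was TRIM27 (0.51) and the median was -0.12. Of all genes 8.00% were higher and 7.18% lower there.

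The 8 genes matched by spelling belong to other families. The CTAGE genes are related to an export receptor of the endoplasmic reticulum and not to CTAG1B, and copies of them share sequence. CTAGE4 had 306, 601, 303 and 281 counts, CTAGE8 had 247, 416, 302 and 125, and CTAGE15 had 71, 152, 101 and 61. All 3 had their highest CPM in LN-OlapR. CTAGE7P had 25 to 59 counts, CTAGE1 had 4 to 23, and CTAGE3P and CTAGE9 had 0 to 16. SSX2IP, a gene for a centrosome protein that binds SSX2, had 1874, 1902, 1361 and 1062 counts and differed by less than 2-fold in each comparison.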

How the data were processed

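The authors prepared stranded mRNA libraries from 100 ng of total RNA and deposited 1 table of estimated counts per gene, not scaled between libraries. The submitters' processing notes name STAR, Partek and the builds GRCh38 and hg38. The counting settings and annotation release are not given in the sources used here. Every gene in the table summed to at least 10.0 over the 4 libraries.

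Here the estimated counts were rounded to whole numbers (sums over copies were rounded once) and scaled with the TMM factors of edgeR 4.0.16 over all 4 libraries. A log2 ratio is that of counts plus 0.5 per effective library size. With 1 library per line there was no test and no p-value. Single counts, taken as parts of the library total, and shares carry exact 95% Clopper-Pearson intervals, and ratios exact conditional binomial ones. A fold against 0 counts was computed against 3 counts in that library. A gene was called at 2-fold or more if it averaged 1 CPM or more over both libraries. Every family gene with at least 20 counts in a library was named with its counts, others by range, and of each further list the highest and lowest ratio. Some results that this rule selects are not reported here. Positions and lengths are from GENCODE 29, matched by Ensembl identifier for 34 of 37 genes. Sharing was the percent of distinct 100-base stretches of a gene's transcripts found in another gene. Promoter stretches were aligned globally with gaps. Members, lists and alternatives were chosen with earlier results of these data known.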

Additional observations from a re-analysis of the deposited data

Results flagged for a closer look

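The summed counts of XAGE1A and XAGE1B were lower in LN-OlapR than in LNCaP (log2 -6.56) and higher in 2B-OlapR than in its parent C4-2B (log2 1.65). The only library of each resistant line thus moved in opposite directions relative to its parent. With 1 library per line the difference between these ratios was not tested.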

How the results depend on the processing

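Of 147 family ratios recomputed under alternatives, 141 had the sign of the reported value. Most of these alternatives changed only the scaling, the pseudocount or the rounding, which can hardly change the sign of a large ratio. Of the 24 family ratios 14 were past 2-fold, so this number says little about how firm the ratios are. With total counts as scaling, the MAGEA log2 ratio was 0.61 in the LN pair and 0.03 in the 2B pair. With MAGEA divided by position, a division chosen after seeing the data, the genes from MAGEA3 to MAGEA6 gave 0.76 in the LN pair, 0.30 in the 2B pair and 0.08 in C4-2B over LNCaP, and the other MAGEA genes gave -0.54, -0.72 and 2.47. With 1 gene kept per group of near-identical copies, XAGE gave -8.36, 2.03 and -1.26 in the same order. Among the GAGE genes only GAGE1 and GAGE2E formed such a group, so GAGE1 alone was left out. GAGE then gave -0.45 in the 2B pair and -0.18 in C4-2B over LNCaP, where the sum over copies was 0.14. The number of members called higher in the LN pair was 1 with total counts and 0 at a minimum of 10 CPM, against 2. The number called lower there was 2 at a minimum of 10 CPM and 17 with no minimum, against 10. In the 2B pair the number lower was 7 at a minimum of 0.1 CPM, 1 at 10 CPM and 8 with no minimum, against 4. In C4-2B over LNCaP, 2 were higher and 1 lower at a minimum of 10 CPM, against 5 and 5. The counts under other minimums follow from how many low genes each admits. The shares of all genes at these settings are not given here. For the other moved values the cause was not tested. With 50-base in place of 100-base stretches, sharing was 56.5% for MAGEA3 and 85.2% for GAGE2A, and MAGEA1 and MAGEA4 had 0.662% and 2.69%. Where a library had 1 or 2 counts, the ratio also moved with the pseudocount. With 2 counts added, the LN pair gave -7.32 for PAGE, -5.27 for SSX and -5.14 for MAGEC, and C4-2B over LNCaP gave -5.36 for MAGEC. Each resistant line was set against its own parent, and with 1 library per line no test was made on these pairs. A fit over all 4 libraries with the LN and 2B pairs as blocks was not run.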
